A study of Mus musculus with 8 samples.

Results

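The change in gene expression when AG120 (ivosidenib) was added to AZA (azacitidine) was read from the 2 libraries labelled AG120_AZA and the 2 labelled AZA. These are 4 of the 8 libraries of the series, and all 12294 genes in the expression table entered the comparison. RNA came from I1DN leukemic progenitor cells, sorted by flow cytometry as cKit+ and CD11b- from mice that had been transplanted with I1DN leukemia. Every group carried the same I1DN cells. The vehicle group received vehicle, the AG120 group AG120 only, the AZA group AZA only and the AG120_AZA group both drugs, each for 5 days and with 2 libraries. The genotype behind the name I1DN, the strain and age of the mice and the dose of each drug are not given in the sources used here. The sort was by surface markers, so cells of the host that carry cKit without CD11b could be among those collected. Expression was read by QuantSeq, which sequences the 3′ ends of polyadenylated transcripts.

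AG120 is an inhibitor of mutant IDH1, the isocitrate dehydrogenase whose mutant form makes 2-hydroxyglutarate, a metabolite that blocks 2-oxoglutarate dependent enzymes such as the TET demethylases. AZA is a cytidine analogue that is phosphorylated by uridine-cytidine kinases, enters RNA and DNA and traps the maintenance DNA methyltransferase, and both drugs are used in acute myeloid leukemia. Blocking of differentiation is a known feature of IDH-mutant leukemia, and myeloid progenitors can mature along erythroid, basophil, megakaryocyte, neutrophil or monocyte paths that are each recognised by their own genes.

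Adding AG120 to AZA raised 130 genes (1.06% of those tested) and lowered 148 (1.2%), by limma with Benjamini-Hochberg adjusted p below 0.05 over all genes. Erythroid regulators and membrane genes, basophil genes, Mt2 and Cda stood among the genes that rose, and the stem cell antigen Cd34, neutrophil granule genes and MHC class I genes among those that fell. The median change was 2.38 on the log2 scale for the higher genes and -2.14 for the lower ones, against 0.04 over all genes. In all 278 called genes the 2 groups did not overlap. Groups also did not overlap in 26.5% of all genes upward and in 22.9% downward, so an absence of overlap on its own is common here. With 2 libraries a side, an exact two-sided permutation test cannot go below p = 0.333, and the calls rest on the spread pooled over all 8 libraries. Each p-value measures spread between libraries, which may be technical, since the labels do not state that every library is a different mouse.

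**Figure D1:**
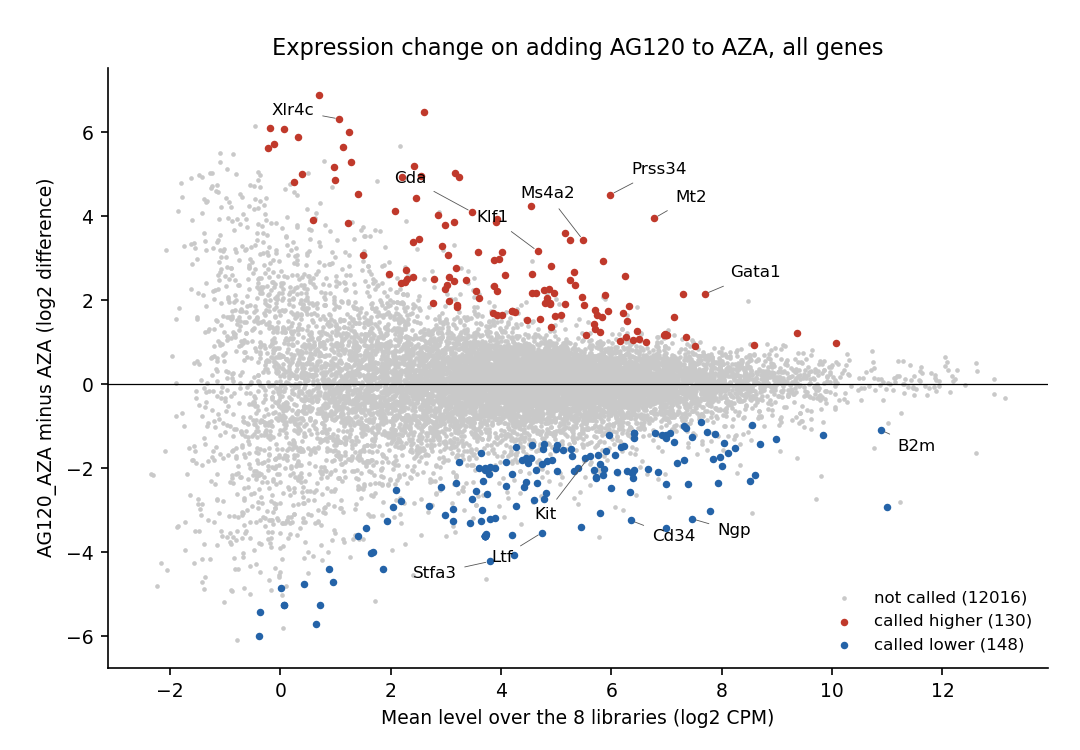
Difference between AG120_AZA and AZA (log2, vertical) against the mean level over the 8 libraries (log2 CPM, horizontal), 1 point a gene, red for 130 genes called higher and blue for 148 called lower. The largest differences lie at low levels, and named genes such as Prss34, Mt2, Cd34 and B2m lie at intermediate or high levels.

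The calls depended on a pair of libraries. Without AZA replicate 1 only 14 genes were called, and without AG120_AZA replicate 2 only 30, of which 12 and 29 were among the 278. Leaving out AZA replicate 2 gave 157 calls, and leaving out AG120_AZA replicate 1 gave 594, of which 471 were lower. AG120_AZA replicate 2 lay farthest out on the first principal component (35.7% of the variance), at 88, with AG120_AZA replicate 1 at 52.6, the AG120 libraries at 3.3 and 33.3, and the 4 libraries without AG120 between -59.7 and -25.3. Replicates correlated across genes at r = 0.927 for AZA and 0.929 for AG120_AZA. Of the 278 genes, 9 were called in each of the 8 fits that left out 1 library, among them Cd34, Milr1, BC035044, Ms4a2, Mt2, Prss34, Klf1 and Epdr1. Without the mean-variance trend in limma, 9 genes were called, of which 4 were among the 278: Gfi1b, Milr1, Xlr4c and Zdhhc14. Every other call named here was lost in that setting. The bar chart of calls by left-out library shows the remaining omissions.

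**Figure D2:**
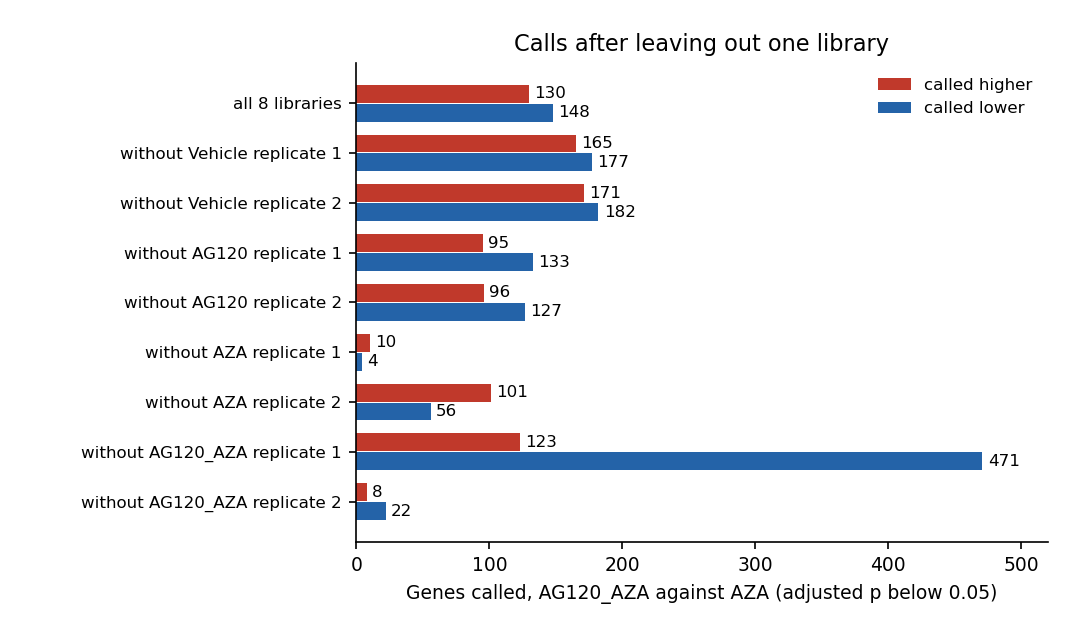
Number of genes called between AG120_AZA and AZA (horizontal) in the fit of all 8 libraries and in fits that each left out 1 library, red for higher and blue for lower. The lower calls ranged from 4 without AZA replicate 1 to 471 without AG120_AZA replicate 1.

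Erythroid genes were the group with the largest share of higher calls. Of 28 measured erythroid regulators and membrane genes, 12 rose and none fell (42.9% higher, against 1.06% of all genes), and the median difference was 2.51 against 0.04 over all genes. Klf1, the erythroid Krüppel-like transcription factor (chromosome 8, 84901928 to 84905291, GRCm38), stood at 2.94 and 3.81 log2 CPM in the AZA libraries and at 6.28 and 6.82 in the AG120_AZA libraries. Both combination libraries lay well above both AZA libraries. The rise was 3.17 ± 0.36 (SE) on the log2 scale, or 9.02-fold (limma adjusted p = 0.00376). Gata1, the master transcription factor of the lineage, stood at 6.69 and 7.05 in AZA and at 8.79 and 9.25 in AG120_AZA, a rise of 2.15 ± 0.35 (adjusted p = 0.0128). In vehicle Gata1 was at 7.40 and 6.42, so AZA alone had left it in the vehicle range. Gfi1b, a repressor needed for erythroid and megakaryocyte maturation, rose by 2.77, from 1.97 and 1.67 to 4.65 and 4.53. A larger share of cells of a lineage and more RNA of that lineage per cell cannot be told apart in bulk samples.

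The receptor and membrane genes followed the regulators. Epor, the erythropoietin receptor, rose by 2.18 ± 0.44 (limma adjusted p = 0.0318), from 3.52 and 3.46 to 6.24 and 5.11. Rhd, a Rh blood group protein of the red cell membrane, stood at 1.06 and 2.62 in AZA and at 5.54 and 5.88 in AG120_AZA, a rise of 3.87 ± 0.61 or 14.7-fold (adjusted p = 0.0109). Car1, the carbonic anhydrase of red cells, rose by 3.61, from 1.97 and 4.47 in AZA to 6.40 and 7.25 in AG120_AZA. Blvrb, biliverdin reductase B, rose by 3.43, the water channel Aqp1 by 2.66, Icam4, the Landsteiner-Wiener blood group protein, by 2.35, and the membrane skeleton protein Add2 by 4.04. Tspo2, an erythroid translocator protein, and Sphk1, a sphingosine kinase, also passed with differences of 6.49 and 4.44, from AZA levels that reached down to -1.57 in replicate 1 for both. Art4, the Dombrock blood group protein, lay outside the list and rose by 3.07. Klf1 was the single erythroid list member called without AZA replicate 1, and also without AG120_AZA replicate 2; the largest adjusted p over the 8 omissions was 0.158 for Gata1, 0.131 for Rhd, 0.178 for Car1, 0.144 for Art4 and 0.232 for Sphk1. Sphk1 passed in 1 of the 8 omissions. Without the trend the list kept 1 call, Gfi1b.

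Genes of late red cell maturation and further list members showed other values. Slc4a1, the band 3 anion exchanger, had a difference of -1.72 ± 1.22 and did not pass (limma adjusted p = 0.464). Tal1, a partner of Gata1, had 1.22 ± 0.33 (adjusted p = 0.0832), and Tfrc, the transferrin receptor, 0.94 ± 0.23 (adjusted p = 0.0577). None of the 4 measured globin genes was called, and their median difference was 0.09, or -0.61 without AZA replicate 1. Hbb-bs, an adult beta globin, stood at 10.40 and 11.63 in AZA and 11.33 and 11.20 in AG120_AZA, so the combination libraries lay within the range of the AZA libraries. Summed over the 4 globin genes, levels were 1901.5 to 4691.3 CPM in AZA, 3206.8 to 3502.6 in AG120_AZA, 1627.3 to 2399.4 in vehicle and 297.2 to 1322.3 in AG120.

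In heme synthesis 3 of 16 genes rose (18.8%, against 1.06% of all genes) and none fell, and the median difference was 0.59. Alad, which makes porphobilinogen, rose by 2.12 ± 0.31 (limma adjusted p = 0.00941), from 4.81 and 5.36 to 6.92 and 7.50. Cpox, coproporphyrinogen oxidase, rose by 2.08 and Fech, which inserts the iron, by 1.63. Of the enzymes that open the pathway, Alas1 had a difference of -2.10 and the erythroid Alas2 one of -0.87, and neither passed (adjusted p = 0.117 and 0.547). Without AZA replicate 1 and without AG120_AZA replicate 2 no heme gene was called, 1 was called without AZA replicate 2, and without AG120_AZA replicate 1 there were 6 higher and 1 lower. None was called without the trend and 5 with robust moderation.

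**Figure D3:**
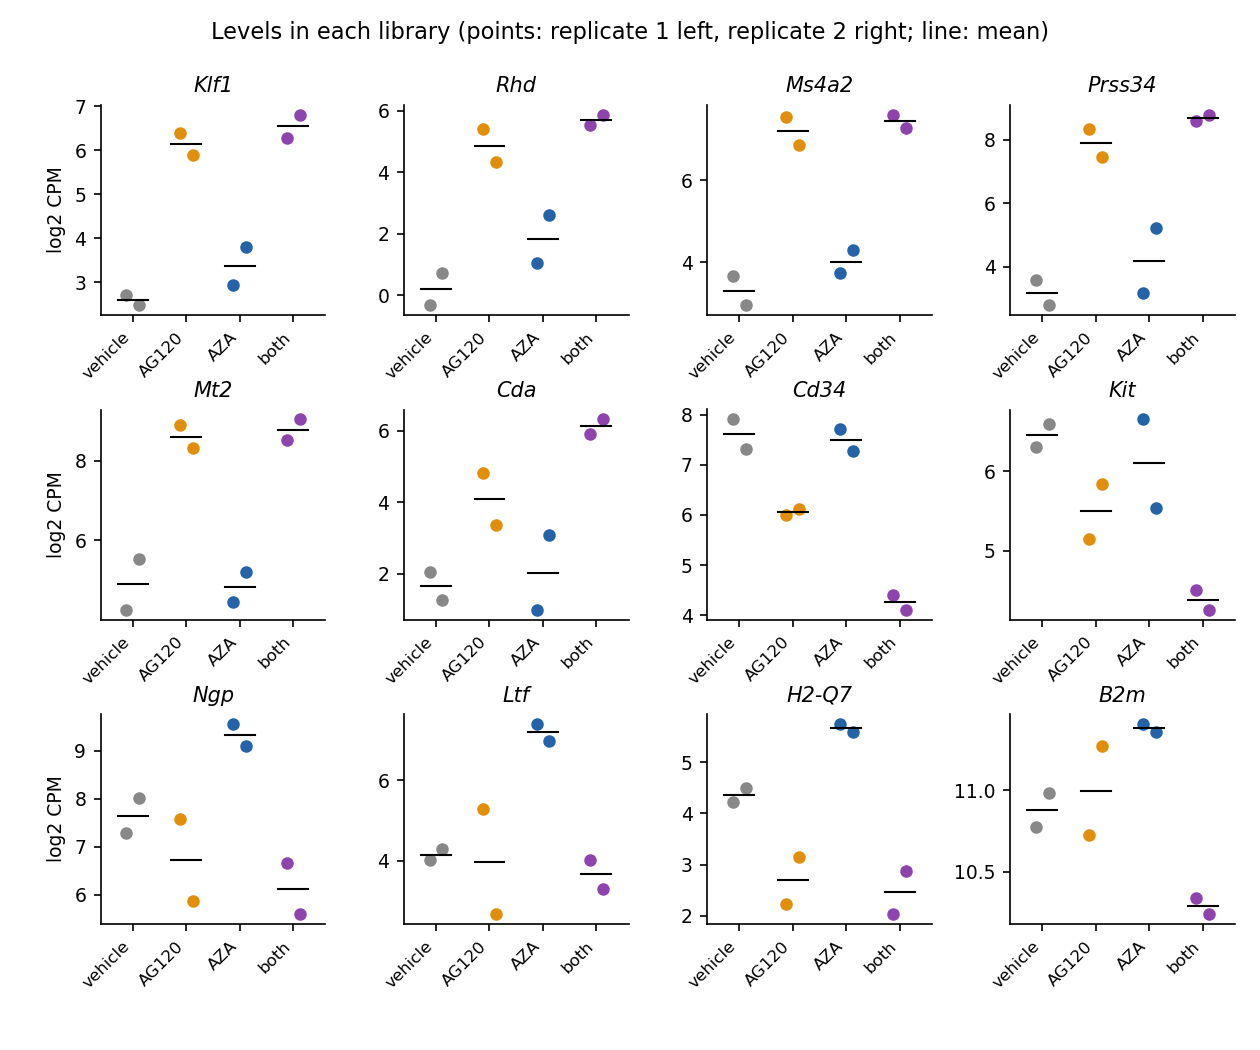
Levels of 12 genes (log2 CPM, vertical, each panel on its own scale) in the 8 libraries by group, where points are libraries and lines are means of 2. Klf1, Rhd, Ms4a2, Prss34 and Mt2 are high in both groups with AG120, Ngp, Ltf and H2-Q7 are highest in AZA, and Cd34 and Kit are lowest in AG120_AZA.

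Basophil and mast cell genes gave 3 higher calls and no lower call among 18 measured (16.7% higher, against 1.06% of all genes). Their median difference was 0.88. Prss34, a serine protease of basophils and mast cells (chromosome 17, 25298394 to 25300165), stood at 3.16 and 5.20 in AZA and at 8.60 and 8.79 in AG120_AZA, a rise of 4.51 ± 0.55 or 22.8-fold (limma adjusted p = 0.00376). Ms4a2 (chromosome 19, 11615523 to 11623719), which encodes the signal-amplifying beta subunit of the IgE receptor, rose 10.8-fold, from 3.73 and 4.29 to 7.61 and 7.29 (3.44 ± 0.34 on the log2 scale, adjusted p = 0.00154). Mcpt8, a basophil protease, went from 3.80 and 4.45 to 6.61 and 6.17, a rise of 2.26 ± 0.33 (adjusted p = 0.00862). For each of these 3 genes the groups lay apart by more than the replicates differed. The other members included the general mast cell protease Cpa3, with 0.30 ± 0.39, the factor Gata2, with -0.06 ± 0.52, and Fcer1g, with 0.07 ± 0.28, none of which passed (adjusted p = 0.711, 0.962 and 0.924). Il1rl1, the interleukin 33 receptor, had 2.54 ± 0.60 (adjusted p = 0.0544). The Mcpt8 call was lost without AZA replicate 1 (adjusted p = 0.104), while Prss34 and Ms4a2 passed in all 8 omissions with adjusted p up to 0.0474 and 0.0378. None of the 3 was called without the mean-variance trend.

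No eosinophil gene was called among 11, and the direction of the list depended on its low members and on 1 library. The median difference was -0.90 over all 11 genes, 1.79 over the 4 with a mean of at least 3 log2 CPM and 0.08 over all 11 without AZA replicate 2. The summed level was 271.6 to 397.5 CPM in AZA and 566.2 to 1270.5 in AG120_AZA. With either vehicle library left out, or with only the AZA and AG120_AZA libraries in the fit, 2 genes were called higher. Prg2, the major basic protein of eosinophil granules, had 1.99 ± 0.88 (limma adjusted p = 0.245), from 7.77 and 7.05 to 10.05 and 8.74.

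The starts of 3 genes that rose hold the letters AGATAA, a form of the sites that GATA factors bind, within the 250 bases before the annotated start. They were picked from the genes named here, and a link between these letters and the higher Gata1 was not tested. The sequences are from RefSeq (GRCm38.p6), 5′ to 3′ on the gene's strand, with AGATAA or its reverse complement TTATCT in capitals. The searches used both strands.
Ms4a2, chr19:11623720-11623969, minus strand: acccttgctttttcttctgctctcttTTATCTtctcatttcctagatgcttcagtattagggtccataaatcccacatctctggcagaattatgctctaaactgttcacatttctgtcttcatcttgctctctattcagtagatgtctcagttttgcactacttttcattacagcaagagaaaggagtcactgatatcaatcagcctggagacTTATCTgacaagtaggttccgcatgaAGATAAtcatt
Prss34, chr17:25298144-25298393, plus strand: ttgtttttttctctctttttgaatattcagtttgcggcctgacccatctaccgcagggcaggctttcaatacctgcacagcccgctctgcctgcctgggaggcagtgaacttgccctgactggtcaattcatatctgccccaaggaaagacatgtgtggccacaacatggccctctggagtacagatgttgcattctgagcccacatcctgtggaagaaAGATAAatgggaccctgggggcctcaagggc
Rhd, chr4:134864286-134864535, plus strand: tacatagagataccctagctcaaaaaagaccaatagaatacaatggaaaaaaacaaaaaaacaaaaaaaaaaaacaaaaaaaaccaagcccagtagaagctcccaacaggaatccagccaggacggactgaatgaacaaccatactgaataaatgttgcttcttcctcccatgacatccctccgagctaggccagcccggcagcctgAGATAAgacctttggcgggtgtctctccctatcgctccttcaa
Ms4a2 holds 3 matches, Prss34 has 1 match 31 bases before it, and Rhd has 1 match 43 bases before it. Over the table of RefSeq promoters the same search found a match in 9.99% of 32851 windows, and in 6.24% of 11748 windows of genes in the expression table. The share was 11.5% of 131 windows of genes called higher and 10.7% of 150 windows of genes called lower, so it was similar in both directions. Epor and Icam4 had 1 match each, and Klf1, Gata1 and Mt2 had no match in their windows. Other forms of the GATA site were not searched, so a window without a match can still hold one. A match of 6 letters is a description of the sequence and was not tested as a binding site.

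Mt2 and Mt1, the metallothioneins that bind zinc and copper, both rose. They are 2 of the 5 measured genes of metallothionein and zinc handling (40% higher, against 1.06% of all genes). Mt2 (chromosome 8, 94172664 to 94173568) stood at 4.45 and 5.20 in AZA and at 8.51 and 9.05 in AG120_AZA, a rise of 3.96 ± 0.41 or 15.5-fold (limma adjusted p = 0.00195). Mt1 rose by 1.23 ± 0.28 (adjusted p = 0.0494), from 8.85 and 8.58 to 9.62 and 10.29. Mtf1, the zinc-sensing factor of metallothionein genes, was at 6.50 and 6.14 in AZA and at 6.23 and 6.06 in AG120_AZA. The Mt2 call passed in every omission (largest adjusted p = 0.044) and was lost without the mean-variance trend, while the Mt1 call was lost in 5 of 8, both AG120 libraries, both AZA libraries and AG120_AZA replicate 2, with adjusted p up to 0.358. The median of the 5 genes was 0.61.

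Cda, cytidine deaminase, which converts cytidine and AZA itself to uridine compounds, was the single called gene among 25 of pyrimidine salvage and cytidine analogue handling. That is 4% called higher, against 1.06% of all genes. Cda (chromosome 4, 138338424 to 138367992) stood at 0.98 and 3.07 in AZA and at 5.92 and 6.33 in AG120_AZA. The rise was 4.10 ± 0.68 or 17.2-fold (limma adjusted p = 0.0131). The AG120 libraries were at 4.83 and 3.35 and the vehicle libraries at 2.03 and 1.27, so the order of the group means was vehicle, AZA, AG120 and AG120_AZA, with vehicle and AZA overlapping. Uck2 and Uck1, the kinases that phosphorylate AZA first, had differences of 0.45 ± 0.23 and 0.51 ± 0.34, Dck, deoxycytidine kinase, -0.57 ± 0.40, and Samhd1, a nucleotide triphosphohydrolase, -0.46 ± 0.26, and none passed (adjusted p = 0.319, 0.445, 0.464 and 0.35). The Cda call was lost without AZA replicate 1 and without AG120_AZA replicate 2, with adjusted p up to 0.156. Of 8 genes of de novo pyrimidine synthesis none was called; their median was 0.27 and Cad, the first enzyme, had 0.99 ± 0.26 (adjusted p = 0.0771).

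Among the genes with the largest rises that belong to no list, Kcng2, a potassium channel subunit, went from -1.25 and 1.81 to 5.38 and 5.23, a rise of 5.02 ± 0.78 (limma adjusted p = 0.0109). Atp1b2, a sodium pump subunit, rose by 4.25, Epdr1, an ependymin-related protein, by 3.94, Samd14 by 3.88, Dmwd by 3.15 and Dnph1, a nucleotide hydrolase, by 3.14. Replicates of Epdr1 lay close together, at 1.73 and 1.91 in AZA and 5.77 and 5.75 in AG120_AZA. Acss1, a mitochondrial acetyl-CoA synthetase with one of the 10 smallest p-values, rose by 2.48 ± 0.29. Zdhhc14, a palmitoyltransferase also named for its p-value, was at -3.63 and -3.43 in AZA, the lowest value of each library, and at 2.92 and 3.81 in AG120_AZA. Lmna, encoding lamin A and C, was the single call among 11 lamina genes (9.09% higher, against 1.06% of all genes), whose median was 0.26. Lmna rose by 2.63, from 3.36 and 4.61 to 6.72 and 6.50. The calls of Atp1b2, Samd14 and Dmwd were lost without AZA replicate 1 and without AG120_AZA replicate 2 (adjusted p up to 0.175), those of Dnph1 and Lmna in these and in 1 further omission (adjusted p up to 0.207), that of Kcng2 without AG120_AZA replicate 2 (0.103), that of Zdhhc14 also without AG120_AZA replicate 2 (0.0758) and that of Acss1 without AZA replicate 1 (0.0624).

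Of 22 measured stem and early progenitor genes, 4 fell and none rose (18.2% lower, against 1.2% of all genes), and the median difference was -1.28. Cd34, the surface antigen of early progenitors (chromosome 1, 194938819 to 194961279), had the smallest p in the comparison. Its levels were 7.72 and 7.28 in AZA, 4.41 and 4.10 in AG120_AZA, 5.998 and 6.11 in AG120 and 7.91 and 7.31 in vehicle. Both combination libraries were below all 6 others. Cd34 fell by 3.24 ± 0.27 on the log2 scale, 9.47-fold lower in AG120_AZA than in AZA (limma adjusted p = 0.00113), and passed in all 8 omissions with adjusted p up to 0.0378. Cd93, a complement receptor-like protein of immature progenitors, fell by 1.78 ± 0.22 (adjusted p = 0.00376), from 8.68 and 8.44 to 6.76 and 6.79. Erg, an ETS factor of stem cells, fell by 1.75 ± 0.38 (adjusted p = 0.0405), from 5.59 and 4.85 to 3.44 and 3.49. Members that did not pass included Meis1, at -0.71 ± 0.33, and Myb, at -0.19 ± 0.22. Without AZA replicate 1 the list gave 1 call, without AG120_AZA replicate 2 it gave 2, and without either vehicle library 5 and 6. It gave none without the trend, and 2 with vooma weights or with the replicate number as a block. The Cd93 call was lost without AZA replicate 1 (adjusted p = 0.0791) and the Erg call without any of the 4 compared libraries (up to 0.294).

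The sort used cKit and CD11b, and Kit, which encodes cKit (chromosome 5, 75574916 to 75656722), was itself lower. Kit stood at 6.65 and 5.54 in AZA and at 4.51 and 4.26 in AG120_AZA, a difference of -1.71 ± 0.37 (limma adjusted p = 0.0393). The vehicle libraries were at 6.31 and 6.59 and the AG120 libraries at 5.15 and 5.84. Itgam, which encodes CD11b, had a difference of -0.80 ± 0.72 (adjusted p = 0.585), with 4.53 and 3.19 in AZA against 3.28 and 2.85 in AG120_AZA, which overlapped. The Kit call was lost without AZA replicate 1 and without AG120_AZA replicate 2, with adjusted p up to 0.286. It was also lost without the trend, with vooma weights, with the replicate block and with only the compared groups in the fit. Milr1, an inhibitory immunoglobulin-like receptor of mast cells, fell by 2.47 ± 0.23 (adjusted p = 0.00148). Milr1 went from 7.21 and 7.32 to 4.92 and 4.68. BC035044 fell by 3.39, from 6.50 and 6.52 to 3.25 and 3.00. Milr1 and BC035044 had replicates closer together than 0.5 on the log2 scale in both groups.

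Neutrophil maturation genes had the lowest median of all lists, -2.84. Of 31 measured, 10 fell and none rose (32.3% lower, against 1.2% of all genes). Ltf, the secondary granule protein lactoferrin (chromosome 9, 111019271 to 111042767), stood at 7.41 and 6.98 in AZA and at 4.02 and 3.30 in AG120_AZA, a difference of -3.53 ± 0.64 or 11.6-fold lower (limma adjusted p = 0.0203). In vehicle Ltf was at 4.01 and 4.28 and in AG120 at 5.28 and 2.66, so the AZA libraries were the high ones and AG120_AZA was near vehicle. Camp, a cathelicidin, went from 9.54 and 8.29 to 6.46 and 4.52, and Ngp, a neutrophil granule protein, from 9.57 and 9.10 to 6.67 and 5.59, differences of -3.42 ± 0.60 and -3.20 ± 0.50. Lcn2, a siderophore-binding granule protein, had a difference of -3.03, S100a9, a calcium-binding protein of neutrophils, -2.92, Chil3 -2.15 and Lyz2, lysozyme, -2.30, and all were called. Stfa3, Stfa2 and Stfa2l1, stefin A cysteine protease inhibitors in a cluster of near-identical copies whose reads can be split by counting, fell too, with differences of -4.22, -4.07 and -3.60. Stfa3 (chromosome 16, 36450537 to 36455392) was at 7.66 and 5.96 in AZA and 2.94 and 2.24 in AG120_AZA.

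The summed level of the 31 neutrophil genes was 14733 to 21088.5 CPM in AZA, 1648.3 to 4163.1 in AG120_AZA, 3898.6 to 17604 in vehicle and 5063.4 to 8141.1 in AG120. Vehicle therefore spanned from below the AG120 range to within the AZA range. Ly6g, a surface marker of mature neutrophils, was at 2.58 and 3.42 in AZA and 0.85 and 0.08 in AG120_AZA, and Itgam overlapped. Whether mature cells that passed the gate contributed was not tested. No neutrophil gene was called without AZA replicate 1, nor without AG120_AZA replicate 2, and 4 were called without AZA replicate 2; the remaining 5 omissions gave 13 or 14. With all 8 libraries, 3 were called with robust moderation, none without the mean-variance trend and 19 with only the compared groups in the fit. The largest adjusted p over the 8 omissions was 0.207 for Ltf and Camp, 0.148 for Ngp, 0.138 for Stfa3 and 0.323 for Lyz2. Of 15 primary granule genes none was called, and their median was -1.33. Mpo, myeloperoxidase, had -1.62 ± 0.39 (limma adjusted p = 0.0556), from 12.92 and 13.20 to 11.97 and 10.90, and Elane, neutrophil elastase, -1.33 ± 0.76 (adjusted p = 0.368).

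**Figure D4:**
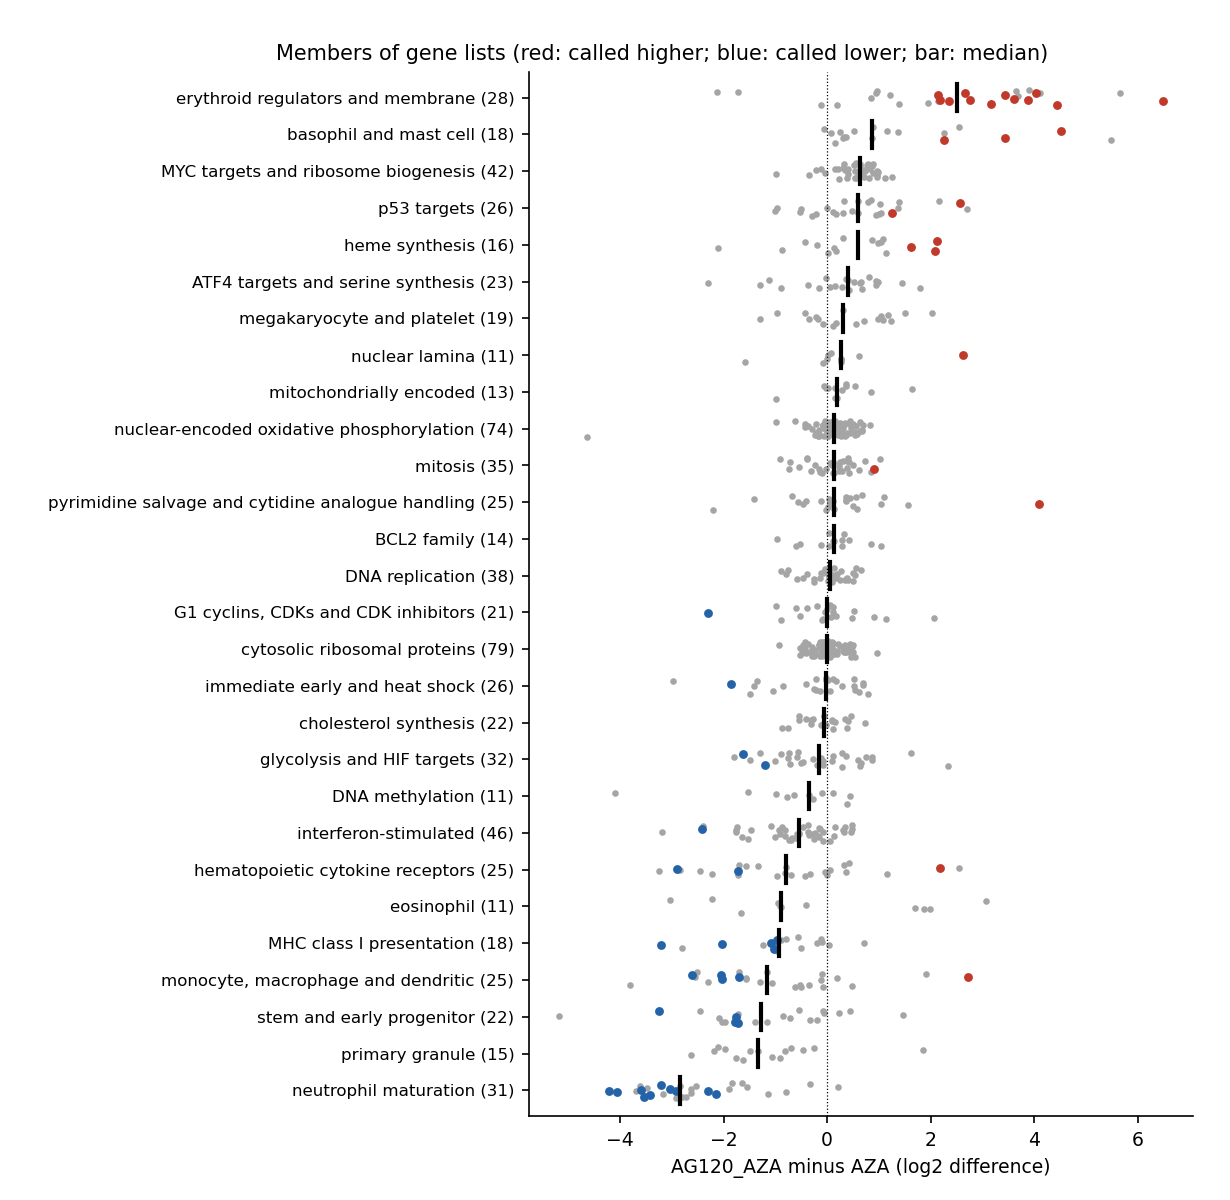
Difference between AG120_AZA and AZA (log2, horizontal) for each member of the 28 lists with at least 10 measured genes, with the number measured in brackets, red and blue for called genes and a bar for the median. Erythroid genes have the highest median, 2.51, and neutrophil maturation genes the lowest, -2.84.

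Of 25 monocyte, macrophage and dendritic genes, 4 fell (16%, against 1.2% of all genes) and 1 rose (4%, against 1.06%). Their median was -1.17. The genes that fell were Ms4a6c (-2.05), Ms4a6b (-2.61), Cd68 (-1.71), a lysosomal protein of macrophages, and Tifab (-2.03). Ms4a6c went from 7.72 and 7.22 to 5.29 and 5.54 (limma adjusted p = 0.00998). Zbtb46, a factor of classical dendritic cells, rose by 2.72, from 1.06 and 0.85 to 3.22 and 4.14. Csf1r, the receptor of the macrophage growth factor, had -1.57 ± 0.44 (adjusted p = 0.087), and Irf8, which directs monocyte and dendritic fate, -1.17 ± 0.37 (adjusted p = 0.124). No gene of this list was called without AZA replicate 1 or without AG120_AZA replicate 2, and 8 were lower without either vehicle library. None was called without the trend, and 3 were lower with vooma weights or the replicate block. The Ms4a6c adjusted p rose to 0.143 and that of Zbtb46 to 0.306.

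MHC class I presentation gave 5 lower calls and no higher call among 18 genes (27.8% lower, against 1.2% of all genes). The median was -0.93. H2-Q7, a class Ib heavy chain, went from 5.75 and 5.59 in AZA to 2.03 and 2.89 in AG120_AZA, a difference of -3.21 ± 0.43 (limma adjusted p = 0.00505). B2m, the light chain shared by class I molecules, fell by 1.09 ± 0.21 (adjusted p = 0.0282), from 11.41 and 11.36 to 10.34 and 10.24. H2-D1, a classical heavy chain, fell by 0.97, and the immunoproteasome subunits Psmb8 and Psmb9 had differences of -1.03 and -2.02 and were also called. H2 genes are near-identical copies, so reads of H2-Q7 and H2-D1 may be shared with others. In vehicle B2m was at 10.78 and 10.98, below AZA and above AG120_AZA, and the AG120 libraries, at 10.72 and 11.27, overlapped with vehicle. The summed level of the 18 genes was 5538.8 to 5631.4 CPM in AZA, 3055.9 to 3250.6 in AG120_AZA, 4050.3 to 4309.7 in vehicle and 3773.9 to 4691.7 in AG120. Without AZA replicate 1 none of these genes was called, and without AG120_AZA replicate 2 only H2-Q7; either AG120 library or AZA replicate 2 left out gave 2 calls. The replicate block, and the fit of only the compared groups, also gave 2, and the fit without the trend gave none. The adjusted p reached 0.0894 for H2-Q7, 0.197 for B2m, 0.26 for H2-D1, 0.281 for Psmb8 and 0.297 for Psmb9, which passed in 1 omission.

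Among 46 interferon-stimulated genes 1 was called lower (2.17%, against 1.2% of all genes) and none higher. The called gene was Ifi203, with -2.41 ± 0.42 (limma adjusted p = 0.017). The median was -0.55, and 37 of the 46 had a negative difference. In 23 of the 46 (over all genes 2812 of 12294, or 22.9%) both AG120_AZA libraries lay below both AZA libraries, and in 3 above. The summed level was 1945.2 to 2392.5 CPM in AZA, 1351.6 to 1713.8 in AG120_AZA, 1388.9 to 1468.5 in vehicle and 1208.9 to 1323.5 in AG120. Ifi203 went from 5.70 and 4.91 to 3.12 and 2.67 and is one of a family of similar genes. Ifitm3, a restriction factor, had -0.9965 ± 0.35 (adjusted p = 0.161) and Ifi27l2a -2.41 ± 0.61 (adjusted p = 0.0657). The Ifi203 call was lost without AZA replicate 1 and without AG120_AZA replicate 2 (up to 0.19). Clec4e, the macrophage-inducible lectin, was named for the difference between the AG120 effects and fell by 2.76 ± 0.34, from 5.70 and 5.92 to 3.27 and 2.85 (adjusted p = 0.00376, and 0.0624 without AZA replicate 1). Zfp467, a zinc finger protein, fell by 3.29, and its call was lost in the same omissions as that of Ifi203 (up to 0.163).

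The Ugt1a cluster filled 9 of the 15 places for the lowest genes. These UDP-glucuronosyltransferases, which conjugate drugs and bilirubin, share their last exons, and 3′ reads cannot assign the transcript. Ugt1a1 (chromosome 1, 88211959 to 88218997) and 6 further symbols had the same values in every library, so the 9 symbols are close to 1 measurement. The Ugt1a1 level was 5.34 and 4.97 in AZA, 1.68 and 1.40 in AG120_AZA, 4.16 and 5.52 in vehicle and 3.13 and 3.49 in AG120. It fell by 3.62 ± 0.46, 12.3-fold lower (limma adjusted p = 0.00376), and the call was lost without AZA replicate 1 (0.0792). With symbols of identical values taken once, 271 measurements were called, 130 higher and 141 lower.

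Of 25 hematopoietic cytokine receptors, which lineages use to read growth factors, 18 had a negative and 7 a positive difference, and the median was -0.79. Epor rose (4% called higher, against 1.06% of all genes), and Kit and Il6ra fell (8% called lower, against 1.2%). Il6ra, the interleukin 6 receptor, fell by 2.91 ± 0.47 (limma adjusted p = 0.0121), from 3.85 and 3.53 to 0.72 and 0.85. Csf3r, the granulocyte growth factor receptor, had -2.84 ± 0.71 (adjusted p = 0.0632), from 3.46 and 3.28 to 1.41 and -0.34. Without AZA replicate 1 no receptor was called, and without AG120_AZA replicate 2 only 1, which was higher. With vooma weights 1 was higher and none lower.

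No megakaryocyte and platelet gene was called among 19, and the median was 0.30. Itgb3, the platelet integrin beta chain, had 1.17 ± 0.39 (limma adjusted p = 0.146), from 6.64 and 7.39 to 8.34 and 8.02, and Gp5 had 1.08 ± 0.39 (adjusted p = 0.172). Markers of cell types outside the myeloid lineages were sparse. Of 11 B cell genes 2 were measured, of 14 T and NK cell genes 4, and of 13 stromal and endothelial genes 2, and no one of these 8 was called. Their summed levels were 8.1 to 26 CPM (B cell), 6.5 to 14.1 (T and NK) and 135.2 to 180.2 (stromal and endothelial) in AZA and 10.1 to 15.5, 13.7 to 14.5 and 124.5 to 179.6 in AG120_AZA. Cd3e and Col1a1, which define T cells and stromal cells, had no row among the genes tested. The medians of the small lists were 0.95 (B cell), 1.09 (T and NK) and 0.24 (stromal and endothelial).

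None of the enzymes that the drugs act on was called, where 1.06% of all genes were called higher and 1.2% lower. At those shares an absence of calls among so few genes says little about them. Of 7 genes of isocitrate dehydrogenase and 2-hydroxyglutarate metabolism the median was -0.19. Idh1 stood at 8.22 and 8.08 in AZA and at 8.53 and 6.94 in AG120_AZA (-0.42 ± 0.42, limma adjusted p = 0.626), and counts per gene do not separate mutant from normal transcripts. Idh2, the mitochondrial enzyme, had -0.62 ± 0.19 (adjusted p = 0.12), Idh3a -0.67, Idh3b -0.19, Idh3g 0.23, and the 2-hydroxyglutarate dehydrogenase D2hgdh 0.06. Of 11 DNA methylation genes none was called, and the median was -0.36. Dnmt1, the maintenance methyltransferase that AZA traps, was at 7.93 and 7.44 in AZA and 7.62 and 7.54 in AG120_AZA (-0.11 ± 0.21, adjusted p = 0.823). The de novo enzymes Dnmt3a and Dnmt3b had -0.64 ± 0.26 and -0.36 ± 0.40, the cofactor Dnmt3l -4.10 ± 1.71, Uhrf1 and Uhrf2, which guide maintenance, -0.27 and 0.11, and the remodeller Hells -0.99. The demethylases Tet1, Tet2 and Tet3 had -1.53 ± 1.24, -0.77 ± 0.52 and 0.38 ± 0.37, and the glycosylase Tdg 0.45. No adjusted p among these 18 genes was below 0.12.

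Genes that methylation is known to keep silent were mostly not measured. Of 29 germline genes 5 were measured and 1 was called (20% higher, against 1.06% of all genes). Of 31 imprinted genes 9 were measured and none was called. The medians of the germline and imprinted lists were 0.45 and 0.49. The called gene was Xlr4c, an X-linked lymphocyte-regulated gene in a family of near-identical copies (chromosome X, 73233688 to 73243130). Xlr4c stood at -2.25 and -3.43 in AZA, the second of which is the lowest value of that library, and at 3.60 and 3.35 in AG120_AZA. The vehicle libraries were at 3.16 and 2.31 and the AG120 libraries at 1.28 and 0.56, so the 2 AZA libraries were the low ones and the combination was in the range of vehicle or above. The difference was 6.32 ± 0.79 on the log2 scale (limma adjusted p = 0.00376, and 0.0596 without AG120_AZA replicate 2); no fold is given, since 1 AZA library is at its lowest value. Its neighbour in the family Xlr4b had 0.45 ± 0.28, from 5.58 and 5.30 to 5.97 and 5.81.

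Calls among proliferation and p53 genes are set beside the shares over all genes, 1.06% called higher and 1.2% called lower. Higher calls made up 2.86% of mitosis genes and 7.69% of p53 targets, and lower calls 4.76% of G1 genes. Each of these shares rests on 1 or 2 genes. In DNA replication none of 38 genes was called (median 0.05). Of 35 mitosis genes 1 was called (median 0.14), Cdc20, an activator of the anaphase-promoting complex, which rose by 0.91 ± 0.20 (limma adjusted p = 0.045), from 7.02 and 7.31 to 8.01 and 8.13. In 16 of the 35 (over all genes 3256 of 12294, or 26.5%) both AG120_AZA libraries lay above both AZA libraries, and in 1 below. The summed level of the mitosis genes was 3952 to 3984.3 CPM in AZA, 4462.5 to 4804.4 in AG120_AZA, 3783.7 to 3895.2 in vehicle and 3849.6 to 4613.6 in AG120. Of 21 G1 genes 1 was called (median -0.00), Ccnd1, cyclin D1, which fell by 2.30 ± 0.49 (adjusted p = 0.0377), from 4.32 and 4.42 to 2.87 and 1.27. Of 26 p53 targets 2 rose (median 0.60): Phlda3, a repressor of AKT, by 2.57 ± 0.59 (adjusted p = 0.0494) and Aen, a nuclease, by 1.25 ± 0.26 (adjusted p = 0.0365). Cdkn1a and Mdm2, the best known targets of p53, had 0.49 ± 0.51 and 0.18 ± 0.24. In the BCL2 family none of 14 was called (median 0.13), and Bcl2 had -0.60 ± 0.30. Each of these 4 calls was lost without either AZA library, either AG120 library or AG120_AZA replicate 2, and that of Cdc20 also without AG120_AZA replicate 1. Over the 8 omissions the differences ranged from 0.76 to 1.05 for Cdc20 and -3.10 to -1.50 for Ccnd1. They ranged from 2.01 to 3.12 for Phlda3 and 1.03 to 1.47 for Aen.

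Ribosome biogenesis genes were higher in most members without a call. Of 42 MYC targets and ribosome biogenesis genes 37 had a positive difference. In 31 of the 42 (over all genes 3256 of 12294, or 26.5%) both AG120_AZA libraries lay above both AZA libraries. The median was 0.63 and none passed, while 3 were called higher with robust moderation. Wdr12, a factor of the large ribosomal subunit, had 0.99 ± 0.23 (limma adjusted p = 0.0544), from 5.01 and 5.28 to 6.10 and 6.17. The summed level was 8728.9 to 10469 CPM in AZA, 13124 to 13566 in AG120_AZA, 9466.8 to 10472 in vehicle and 13384 to 14004 in AG120. The 79 cytosolic ribosomal proteins had a median of -0.01 and no call.

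Calls in metabolic and stress lists are set beside 1.06% higher and 1.2% lower over all genes. Lower calls made up 6.25% of glycolysis and HIF target genes and 3.85% of immediate early and heat shock genes. No gene was called among 13 mitochondrially encoded (median 0.19), 74 nuclear-encoded oxidative phosphorylation (0.14), 23 ATF4 target and serine synthesis (0.41) and 22 cholesterol synthesis genes (-0.07). Of 32 glycolysis and HIF target genes 2 fell (median -0.16): Slc2a1, the glucose transporter GLUT1, with -1.63 ± 0.37 (limma adjusted p = 0.0492), from 4.30 and 4.68 to 2.87 and 2.85, and Pkm, pyruvate kinase, with -1.20 ± 0.24 (adjusted p = 0.0324), from 10.11 and 10.42 to 9.19 and 8.95. Of 26 immediate early and heat shock genes 1 fell (median -0.01), Klf6, with -1.86 ± 0.43 (adjusted p = 0.0494); Fos had -1.50 ± 0.39 (adjusted p = 0.0691). The calls of Slc2a1, Pkm and Klf6 were lost without either AZA library or AG120_AZA replicate 2. Those of Slc2a1 and Klf6 were also lost without either AG120 library, and that of Slc2a1 without AG120_AZA replicate 1. Over the 8 omissions the differences ranged from -1.83 to -1.44 for Slc2a1, -1.35 to -1.04 for Pkm and -2.42 to -1.30 for Klf6.

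How far the change depended on AZA was read by setting it beside AG120 alone against vehicle, a comparison of the other 4 libraries. The group means share no sample, but both tests use the spread pooled over all 8 libraries, so their calls are not independent. AG120 alone gave 71 called genes (0.578% of those tested); 46 were called in both, all in the same direction (33 higher, 13 lower), which is 16.5% of the 278 and 64.8% of the 71. Of the 278 genes, 92.1% had the same sign in AG120 alone, against 64.4% of all genes. The 71 fell to 8 without vehicle replicate 1, 14 and 22 without AG120 replicates 1 and 2, 54 and 44 without AZA replicates 1 and 2, 18 with only its own 4 libraries in the fit and 0 without the mean-variance trend. The 130 higher genes had a median of 1.56 and the 148 lower genes a median of -0.93 in AG120 alone, against 2.38 and -2.14 with AZA; the larger values come from the comparison that selected the genes. Across 12294 genes, which are not independent and share libraries, the changes correlated at r = 0.43. The test of the difference between both AG120 effects called no gene by limma (0% of 12294). Its smallest adjusted p was 0.196, for Xlr4c, and 765 genes had an unadjusted p below 0.05. No gene was called by the other fits of all 8 libraries either, while leaving out AG120_AZA replicate 1 gave 29 calls, vehicle replicate 2 gave 2, each AG120 library gave 1 and the remaining 4 omissions none.

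**Figure D5:**
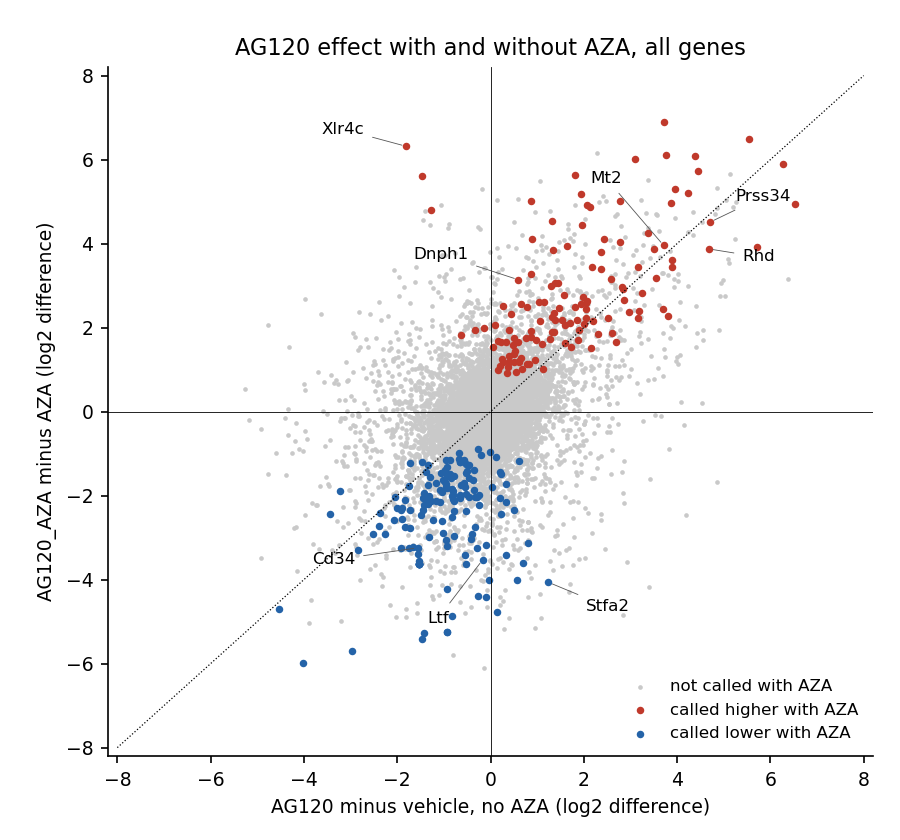
AG120 effect in the presence of AZA (AG120_AZA minus AZA, log2, vertical) against the effect in its absence (AG120 minus vehicle, log2, horizontal), 1 point a gene, with genes called in the presence of AZA in red and blue and a dotted line of equal effects. Most called genes lie in the quadrants of equal sign, with Xlr4c and Stfa2 among those that do not.

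The list medians in both settings are given side by side, and no difference between them was tested for a list. The erythroid list had medians of 2.51 with AZA and 1.60 without it, the basophil list 0.88 and 1.19, heme synthesis 0.59 and 0.59, and the metallothionein list 0.61 and 0.64. The neutrophil list had -2.84 with AZA and -0.09 without it, primary granule genes -1.33 and 0.24, and MHC class I genes -0.93 and 0.01. The vehicle libraries behind the second neutrophil value summed to 3898.6 and 17604 CPM. Eosinophil genes had -0.90 with AZA, a value whose sign turned as given above, and 3.70 without it, globins 0.09 and -1.60, and megakaryocyte genes 0.30 and -0.73. No member of these lists passed the test of the difference by limma. Of the genes with a mean of at least 3 log2 CPM named for the smallest unadjusted p there, a limit that Xlr4c misses, Stfa2 had a difference of -4.07 with AZA and 1.24 without it (-5.31 ± 0.94 between them, adjusted p = 0.794). Rhob, a small GTPase, fell by 1.17 with AZA, from 8.78 and 8.08 to 7.12 and 7.39, and had 0.61 without it (-1.78 ± 0.35, adjusted p = 0.794). Cd34 had -3.24 and -1.56 (-1.69 ± 0.38), Clec4e -2.76 and -0.34 (-2.41 ± 0.48), and the noncoding RNA Neat1 0.87 and -0.94 (1.80 ± 0.39), each with an adjusted p of 0.794. The Rhob call with AZA was lost in 5 omissions, both AG120 libraries, AZA replicate 1 and both AG120_AZA libraries, with adjusted p up to 0.281.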

How the data were processed

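The authors deposited 1 table of log2 CPM, named as voom-normalized, for 12294 genes in 8 libraries. The unit was checked against the range and totals of the values. Alignment with HISAT2 (2.1.0) to mm10 and counting with featureCounts (Subread 1.6.3) stand in the tool names per the submitters' processing notes. Per the submitters' processing notes the authors' tools also included edgeR (3.28.1) and limma (3.42.2) under R (3.6.2), and cutadapt (1.14) and bcl2fastq (2.17.1.14). The counting annotation and strand setting are not given in the sources used here. All libraries had the same highest value, 13.37, and summed to 999525 to 999562 CPM, so they had been brought to 1 distribution and total counts are unknown. Between 100 and 376 genes a library shared its lowest value.

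Here, group means were compared by limma (3.58.1, under R 4.3.3; lmFit, then eBayes with a mean-variance trend) over 4 groups, with 4 residual and 7.061 prior degrees of freedom. P-values were Benjamini-Hochberg adjusted over all genes, and genes below 0.05 were called. The code was run on simulated data with known changes and independent normal noise for each gene. Such data cannot show how the calls depend on single libraries. Levels are log2 CPM given in order of replicate, and ± is the standard error. Of the symbols 98.1% matched GENCODE release 21, whose GRCm38 coordinates are given; promoter sequences are from RefSeq.

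The groups compared, the gene lists and the tests were chosen with earlier results of these data known. Named were the 15 called genes a direction with the largest differences, a mean of at least 3, no overlap and a gene name, 5 genes with the smallest p for the difference between effects under the same limits of mean and name, up to 4 a list by smallest p, all sort marker, isocitrate dehydrogenase and DNA methylation genes, and 5 genes of azacitidine handling. The 10 smallest p-values, every called list member and the genes of the closing section were added after their values were seen. Alternatives were the spread model, filters on low levels, a pseudocount of 1, a shift of each library, a replicate block, the samples in the fit and leaving out each library. Some members of the lists are counted but not reported here by name.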

Additional observations from a re-analysis of the deposited data

How the results depend on the processing

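The count of called genes between AG120_AZA and AZA (278, 130 higher and 148 lower) was 9 (5 and 4) without the mean-variance trend, of which 4 were among the 278, 67 (29 and 38) with a mean of at least 5 log2 CPM, where fewer genes were tested, and 427 (219 and 208) on log2(CPM + 1). It lay between 205 and 339 with robust moderation, vooma weights, a mean of at least 3, a shift of each library, or only the groups compared in the fit. Leaving out 1 library gave 14 to 594 calls, 8 to 171 higher and 4 to 471 lower. For AG120 against vehicle the count (71) was 0 without the trend, 39 with vooma weights, 23 with a mean of at least 5 and 18 with only the groups compared, and 8 to 103 with 1 library left out. For the difference between both AG120 effects it was 0 in every fit of all 8 libraries and 0 to 29 with 1 left out. Apart from the smaller number of genes or libraries, the cause of these changes was not tested. When 1 library of a pair is left out, the other is assumed to vary like the remaining groups.

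With the replicate number as a block, 213 genes were called (93 higher, 120 lower), of which 199 were among the 278, and 60 for AG120 against vehicle. The numbers do not pair the libraries by any label, and correlations of the deviations of same-numbered libraries ranged from -0.111 to 0.194. Of 3527 recomputed values of the 215 named genes, 3039 kept direction and call, 432 lost the call, 56 gained it and none reversed. Of the list medians 431 kept within the spread between replicates and 60 moved. Depth is unknown, which limits what can be said of genes at low levels; a mean below 3 log2 CPM held for 38 of the higher and 22 of the lower genes.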

Other observations

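Of the 278 called genes, 222 belonged to no list. The genes named here were chosen from them after their values were seen, and they are given as descriptions of single genes, with no count or test of a group. Steap3, the ferrireductase of erythroid endosomes, stood at 3.93 and 5.47 in AZA and at 7.61 and 7.65 in AG120_AZA, a rise of 2.93 ± 0.52 (limma adjusted p = 0.0185), and it had 2.85 in AG120 against vehicle. Abcb6, a porphyrin transporter, rose by 2.49 ± 0.45 (adjusted p = 0.0201) and Slc11a2, the iron transporter DMT1, by 1.95 ± 0.41 (adjusted p = 0.0367). Mthfd1, of one-carbon metabolism, rose by 1.31, and Prps1, which makes the ribose phosphate of nucleotides, by 0.98.

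Among the lower genes chosen in the same way, Ccl5, a chemokine, stood at 5.01 and 5.06 in AZA and at 1.49 and 2.10 in AG120_AZA, a difference of -3.24 ± 0.43 (limma adjusted p = 0.00486). Unc93b1, which carries nucleic acid sensing Toll-like receptors to endosomes, fell by 2.57 ± 0.38 (adjusted p = 0.00949). Irf1, an interferon-responsive transcription factor, went from 7.91 and 7.52 to 6.34 and 6.31 (-1.38 ± 0.21, adjusted p = 0.00949), and Sting1, the adaptor of cytosolic DNA sensing, fell by 1.49. Tgfbi, a matrix protein made by monocytes, fell by 2.58, and Fgl2, a fibrinogen-like protein, had a difference of -3.05 and was called. Each gene named in both paragraphs lost its call without AZA replicate 1, and all but Ccl5 and Tgfbi also without AG120_AZA replicate 2. The calls of Slc11a2, Prps1, Sting1, Tgfbi and Fgl2 were lost without AZA replicate 2 too, and that of Prps1 without either AG120 library.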
